A study of Sus scrofa with 12 samples.

Results

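Cohesin is a ring of proteins that encircles DNA, and its subunits and regulators were followed here through 10 genes in pig aortic valve interstitial cells (paVICs), the fibroblasts of the valve leaflet. The ring is represented by SMC1A, SMC3, RAD21, STAG1 and STAG2, its loader by NIPBL and MAU2, and its release by WAPL, PDS5A and PDS5B. The set was picked because STAG2, SMC3 and NIPBL were higher in all 3 treatments than in the vehicle control, and the question was whether the other 7 genes, and above all those with short genes, moved too. These 3 were selected on the contrasts with vehicle, so their values in those contrasts are given as a description and with no test. All 10 genes had a row in the count table of 31908 genes, and all 10 were among the 13216 genes that passed the filter on low counts.

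The 12 libraries were made from mRNA of wild-type primary paVICs after 24 h of treatment in low-serum medium, in 4 groups of 3. The vehicle control held 0.6% DMSO and 0.1% ethanol. The LPC group received 10 µM lysophosphatidylcholine, a lipid of oxidized low-density lipoprotein, with the DMSO vehicle. The dantrolene group received 60 µM dantrolene, a blocker of the ryanodine receptor calcium channel, with the ethanol vehicle, and the LPC + dantrolene group received both agents at these doses. Replicates 1, 2 and 3 of a group are separate isolations, each from the pooled valves of several hearts and each cultured on its own day. The n of 3 thus counts isolations and not animals. The sample titles give a replicate number only, so taking 1 number as 1 isolation across groups is an inference. The cells had been frozen, thawed, and passaged on plastic before treatment.

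As background, SMC1A and SMC3 are the long coiled-coil ATPases of the ring, RAD21 is the kleisin that closes it, and either STAG1 or STAG2 binds RAD21. NIPBL with MAU2 loads the ring onto chromatin and drives the extrusion of DNA loops, whereas WAPL with PDS5A or PDS5B opens it. Cohesin holds sister chromatids together in dividing cells, and in all cells it folds chromosomes into loops whose ends are often marked by the insulator protein CTCF.

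Total counts ranged from 16489684 to 24105935 per library, and levels are given as CPM, a gene's counts relative to the total of its library after TMM scaling. The level of 3 counts was 0.114 to 0.186 CPM, which allows for counting error alone. The markers of valve interstitial cells and fibroblasts were abundant, with all 11 tested and a summed level of 55551 to 105264 CPM per library. Endothelial markers summed to 104 to 172 CPM (6 of 7 tested). ERG was at 39.7 to 87.2 CPM, PECAM1 at 23.7 to 44.2 CPM, CDH5 at 13 to 37.7 CPM and TIE1 at 5.31 to 11.3 CPM. VWF, TEK and KDR reached at most 3.89, 1.30 and 0.238 CPM. The endothelial sums were 139 to 172 CPM with vehicle against 104 to 141 CPM with LPC, 119 to 124 CPM with dantrolene, and 107 to 112 CPM with LPC + dantrolene. Of the 6 leukocyte markers 2 were tested, CD14 at 10.3 to 24.5 CPM and CD68 at 0.760 to 3.17 CPM. PTPRC and CD3E were at 0 in all 12 libraries, and the summed level was 12.6 to 28.8 CPM. The part of other cell types in the results was not tested. Because the libraries are bulk RNA, fewer cells of a type and less RNA per cell cannot be told apart.

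On the measure below, the LPC + dantrolene library of isolation 2 stood apart from the other members of its group. The dantrolene library of isolation 2 was the highest of its group, in which all 3 were spread widely. Taking for each library the median over the 10 cohesin genes of the log2 deviation from the mean of all libraries, the LPC + dantrolene library of isolation 2 was at −0.92, among the vehicle libraries (−0.90, −1.36 and −1.55), whereas the other two of its group were at 0.70 and 0.79. In the dantrolene group the values were −0.23, 0.96 and 0.31 for isolations 1 to 3, and in the LPC group 0.77, 0.74 and 0.49. Groups were taken from the labels, and whether these 2 libraries carry the right labels was not tested, which bears on every value with dantrolene below. Values without 1 or both of them are given below for some genes and contrasts only, and sizes changed elsewhere too. For example, without dantrolene replicate 2 the log2 fold change with dantrolene went from 2.52 to 1.93 for NIPBL. It went from 1.98 to 1.52 for STAG1, 1.81 to 1.42 for PDS5B and 1.63 to 1.31 for PDS5A. Without LPC + dantrolene replicate 2 the value with LPC + dantrolene went from 1.90 to 2.33 for STAG1 and from 2.46 to 2.93 for SMC3.

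Of the ring subunits, STAG1, STAG2, SMC3 and RAD21 were higher with every treatment, and SMC1A was not called in any. STAG1, the cohesin subunit often found at CTCF-bound loop ends, measured 8.11, 5.72 and 6.39 CPM in the vehicle libraries of isolations 1 to 3, then 37.4, 37.7 and 34.2 CPM with LPC, 15.2, 40.9 and 23.6 CPM with dantrolene, and 37.2, 10.4 and 28.2 CPM with LPC + dantrolene. Each of the 9 treated libraries lay above each vehicle library. STAG1 rose by 2.43 ± 0.38 on the log2 scale with LPC (log2 fold change ± SE, n = 3 per group, edgeR adjusted p = 2.59e-06, called at under 0.05), or 5.39-fold. With dantrolene the log2 rise was 1.98 ± 0.37 (edgeR adjusted p = 7.55e-05), and with LPC + dantrolene it was 1.90 ± 0.37 (edgeR adjusted p = 0.00014). The STAG1 gene lies on chromosome 13 from 77321872 to 77863533 (Sscrofa11.1), and the protein-coding gene SLC35G2 overlaps that interval. Reads of the pair may thus be hard to tell apart where the counting used no strand.

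STAG2, the alternative partner of RAD21, measured 7.53, 7.07 and 7.5 CPM with vehicle, 51.8, 63.7 and 41.1 CPM with LPC, 25.1, 85.3 and 34.5 CPM with dantrolene, and 44.9, 16.6 and 58.9 CPM with LPC + dantrolene. The vehicle libraries were within 1 CPM of each other, and the lowest treated library was that of LPC + dantrolene in isolation 2. As one of the genes that chose the set, STAG2 is described only, with log2 fold changes against vehicle of 2.82 with LPC, 2.71 with dantrolene and 2.45 with LPC + dantrolene. Without the dantrolene library of isolation 2 the value with dantrolene was 2.02. The gene lies on chromosome X from 101476117 to 101617405.

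SMC3, the ring ATPase that is acetylated when cohesion is established, measured 11.3, 9.11 and 8.08 CPM with vehicle, 58.9, 69.2 and 45.1 CPM with LPC, 24.6, 90.6 and 41 CPM with dantrolene, and 59.1, 16.9 and 80.7 CPM with LPC + dantrolene. Its log2 fold changes were 2.60, 2.45 and 2.46 in that order of treatment, and again every treated library lay above every vehicle library. The dantrolene value was 1.79 without the dantrolene library of isolation 2. At 39.3 kb (chromosome 14, 120969629 to 121008924), SMC3 is the shortest of the 3 genes that chose the set.

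SMC1A, the partner ATPase of SMC3, measured 71.3, 68.0 and 53.9 CPM with vehicle, 87.0, 56.8 and 78.5 CPM with LPC, 70.8, 69.8 and 62.9 CPM with dantrolene, and 65.4, 29.4 and 61.9 CPM with LPC + dantrolene. All 3 treated ranges overlapped the vehicle range, and the lowest value of the 12 was that of LPC + dantrolene in isolation 2. The log2 fold change was 0.20 ± 0.32 with LPC (95% interval −0.43 to 0.84, edgeR adjusted p = 0.778), 0.07 ± 0.32 with dantrolene (−0.56 to 0.71, edgeR adjusted p = 0.940) and −0.30 ± 0.32 with LPC + dantrolene (−0.94 to 0.33, edgeR adjusted p = 0.860). Without the LPC + dantrolene library of isolation 2 the third value was 0.04. SMC1A spans 58.5 kb on chromosome X, from 46143738 to 46202187.

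RAD21, the kleisin and the shortest gene of the set at 29.6 kb (chromosome 4, 21772821 to 21802453), rose with every treatment. Its level was 36.6, 34.5 and 23.2 CPM with vehicle, 88.0, 87.9 and 80.0 CPM with LPC, 45.0, 93.6 and 70.3 CPM with dantrolene, and 84.9, 30.1 and 87.5 CPM with LPC + dantrolene. The LPC and dantrolene libraries were all above vehicle, but the LPC + dantrolene library of isolation 2 fell within the vehicle range. With LPC the log2 rise was 1.44 ± 0.34 (edgeR adjusted p = 0.00164), or 2.71-fold. With dantrolene it was 1.15 ± 0.34 (edgeR adjusted p = 0.0183) and with LPC + dantrolene 1.10 ± 0.34 (edgeR adjusted p = 0.0286). These last 2 calls were lost with the isolation as a block (edgeR adjusted p = 0.0562 and 0.0989), and the last also in a fit of its 2 groups alone (edgeR adjusted p = 0.0915).

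The RAD21 calls with dantrolene and with the combination also turned on single libraries. The call with dantrolene was lost when vehicle replicate 1, 2 or 3, LPC replicate 2, or dantrolene replicate 2 or 3 was left out, and without dantrolene replicate 2 the log2 value was 0.88 (edgeR adjusted p = 0.257). Without both dantrolene-treated libraries of isolation 2 the value was also 0.88 and was called (edgeR adjusted p = 0.0270). With LPC + dantrolene the call was lost without any of vehicle replicates 1 to 3, LPC replicates 1 or 2, or LPC + dantrolene replicates 1 or 3, with an adjusted p of up to 0.317 in edgeR. Without LPC + dantrolene replicate 2 the log2 value was 1.51 (edgeR adjusted p = 4.55e-05).

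**Figure D1:**
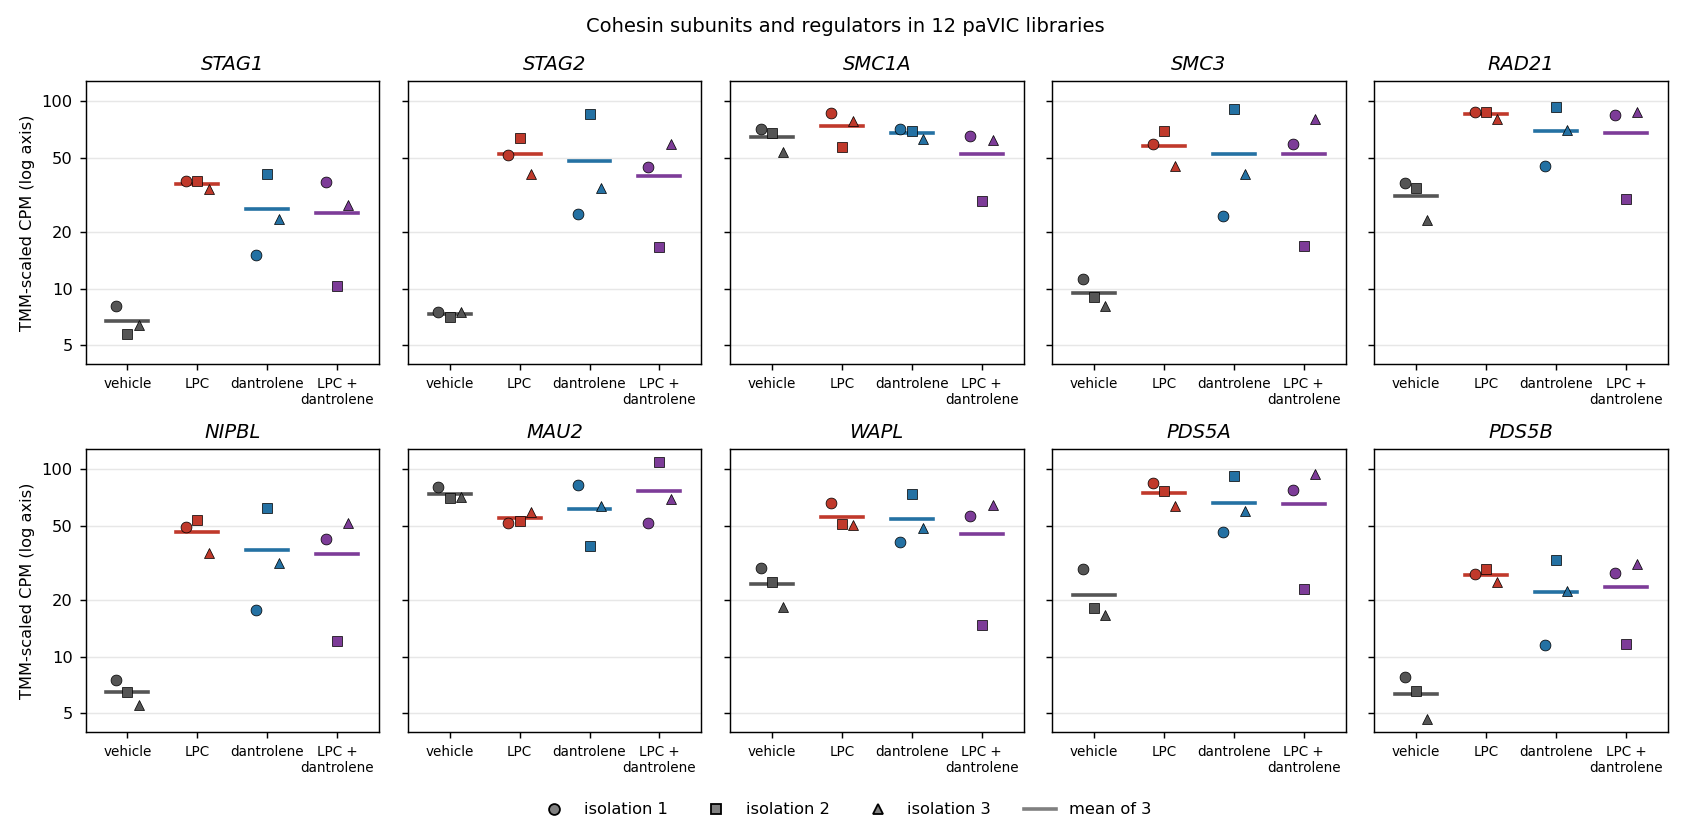
TMM-scaled CPM (log axis) of each cohesin gene in the 12 paVIC libraries by treatment, with the isolation as the marker shape and the mean of 3 as a bar. The 3 vehicle libraries lie below every treated library for STAG1, STAG2, SMC3, NIPBL and PDS5B, the LPC + dantrolene library of isolation 2 (purple square) lies near vehicle for most genes, and SMC1A and MAU2 do not share the rise.

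The loader subunits differed from each other. NIPBL, the large subunit that loads cohesin and stimulates its ATPase, measured 7.49, 6.48 and 5.52 CPM with vehicle, 49.4, 53.5 and 35.8 CPM with LPC, 17.8, 61.9 and 31.8 CPM with dantrolene, and 42.3, 12.1 and 51.9 CPM with LPC + dantrolene. It is the third gene that chose the set, with log2 fold changes against vehicle of 2.83, 2.52 and 2.45, and all 9 treated libraries were above vehicle. NIPBL lies on chromosome 16 from 22152455 to 22364373 and overlaps an annotated pseudogene.

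MAU2, which binds the end of NIPBL and stabilizes it, measured 80.7, 69.9 and 70.9 CPM with vehicle, 51.9, 53.1 and 59.3 CPM with LPC, 81.9, 39.0 and 64.0 CPM with dantrolene, and 51.7, 109 and 69.7 CPM with LPC + dantrolene. The 3 LPC libraries were all below the 3 vehicle libraries, yet the log2 fold change of −0.43 ± 0.33 did not pass the test (95% interval −1.07 to 0.21, edgeR adjusted p = 0.588). With dantrolene the log2 value was −0.26 ± 0.33 (−0.90 to 0.38, edgeR adjusted p = 0.779), and with LPC + dantrolene it was 0.06 ± 0.33 (−0.58 to 0.70, edgeR adjusted p = 0.981). The highest of the 12 values was LPC + dantrolene in isolation 2 and the lowest was dantrolene in isolation 2, and without the former the last log2 value was −0.23. MAU2 spans 37.8 kb on chromosome 2, from 58536414 to 58574248, nearly the same span as SMC3.

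The release factors were higher with treatment, PDS5A and PDS5B more firmly than WAPL. WAPL, which opens the ring and takes cohesin off chromatin, measured 29.9, 25 and 18.4 CPM with vehicle, 66.2, 50.9 and 50.5 CPM with LPC, 40.7, 73.5 and 48.7 CPM with dantrolene, and 56.2, 14.7 and 64.1 CPM with LPC + dantrolene. LPC and dantrolene were apart from vehicle, whereas the LPC + dantrolene library of isolation 2 was the lowest of all 12. WAPL rose by 1.19 ± 0.36 on the log2 scale with LPC (edgeR adjusted p = 0.0172) and by 1.15 ± 0.35 with dantrolene (edgeR adjusted p = 0.0240). It was at 0.88 ± 0.35 with LPC + dantrolene (edgeR adjusted p = 0.145).

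Of these WAPL results the first 2 were lost with the isolation as a block (edgeR adjusted p = 0.0594 and 0.0627). The LPC call was also lost without vehicle replicate 2 or 3 or LPC replicate 1 or 2, with an adjusted p of up to 0.160 in edgeR. The dantrolene call was lost without vehicle replicate 1, 2 or 3, LPC replicate 1 or 2, or dantrolene replicate 2, the last giving 0.87 (edgeR adjusted p = 0.299). Without both dantrolene-treated libraries of isolation 2 it was kept, also at 0.87 (edgeR adjusted p = 0.0279). Without LPC + dantrolene replicate 2, WAPL was called higher with the combination too, at 1.35 (edgeR adjusted p = 0.000275). The gene covers 96.2 kb of chromosome 14, from 87492452 to 87588678.

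PDS5A, one of the paired HEAT-repeat proteins that bind RAD21 next to WAPL, measured 29.2, 18.1 and 16.6 CPM with vehicle, 84.6, 76.3 and 63.5 CPM with LPC, 46.4, 92.3 and 59.6 CPM with dantrolene, and 77.9, 22.9 and 94.3 CPM with LPC + dantrolene. One treated library, LPC + dantrolene in isolation 2, lay within the vehicle range, although it was above the vehicle library of its own isolation. PDS5A rose by 1.81 ± 0.36 with LPC, 1.63 ± 0.36 with dantrolene and 1.61 ± 0.36 with LPC + dantrolene on the log2 scale (edgeR adjusted p = 0.00013, 0.000693 and 0.000911). It lies on chromosome 8 from 30988366 to 31134331, where RefSeq types the PDS5A entry as a long non-coding RNA and places a pseudogene across it.

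PDS5B, its paralog, measured 7.77, 6.60 and 4.65 CPM with vehicle, 27.6, 29.3 and 25 CPM with LPC, 11.6, 32.8 and 22.3 CPM with dantrolene, and 28.1, 11.7 and 31.3 CPM with LPC + dantrolene. All 9 treated libraries were above the vehicle libraries. The rise on the log2 scale was 2.10 ± 0.37 with LPC, 1.81 ± 0.37 with dantrolene and 1.90 ± 0.37 with LPC + dantrolene (edgeR adjusted p = 1.65e-05, 0.000232 and 0.000131). PDS5B spans 208 kb on chromosome 11, from 9014694 to 9223035.

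Counted together, 5 of the 7 partners were called higher with LPC (RAD21, STAG1, WAPL, PDS5A and PDS5B), the same 5 with dantrolene, and 4 of 7 with LPC + dantrolene, where WAPL was not called. Of all genes tested, 8.54%, 7.54% and 6.23% were called higher. None of the partners was called lower, where 0.144%, 1.26% and 0.9% of all genes were. All 3 treated libraries were above all 3 vehicle libraries for 5 of the 7 partners with LPC and 5 with dantrolene, against 16.6% and 16.1% of all genes, and for 2 with LPC + dantrolene (STAG1 and PDS5B), against 4.71% of all genes. Within isolations, 5, 5 and 3 of the 7 partners were higher in all 3 pairs. The share of all genes higher in all 3 pairs was not computed, so this count has no baseline. With 1 library left out the number of partners called was 4 or 5 with LPC, 3 to 5 with dantrolene and 3 to 5 with LPC + dantrolene. The partners share the contrasts and the vehicle libraries with the genes that chose the set, so their calls are not independent of the choice. Because the deposited counts were already adjusted for batch, adjusted p-values can be too small.

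The median log2 fold change of the 7 partners was 1.44 with LPC, 1.15 with dantrolene and 1.10 with LPC + dantrolene. Over all genes tested it was −0.18, −0.11 and −0.08. Scaling by total counts alone shifted the median of all genes upwards by 0.17, 0.24 and 0.20, and the cohesin genes moved upwards with it without a change of direction in any of these 3 contrasts.

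**Figure D2:**
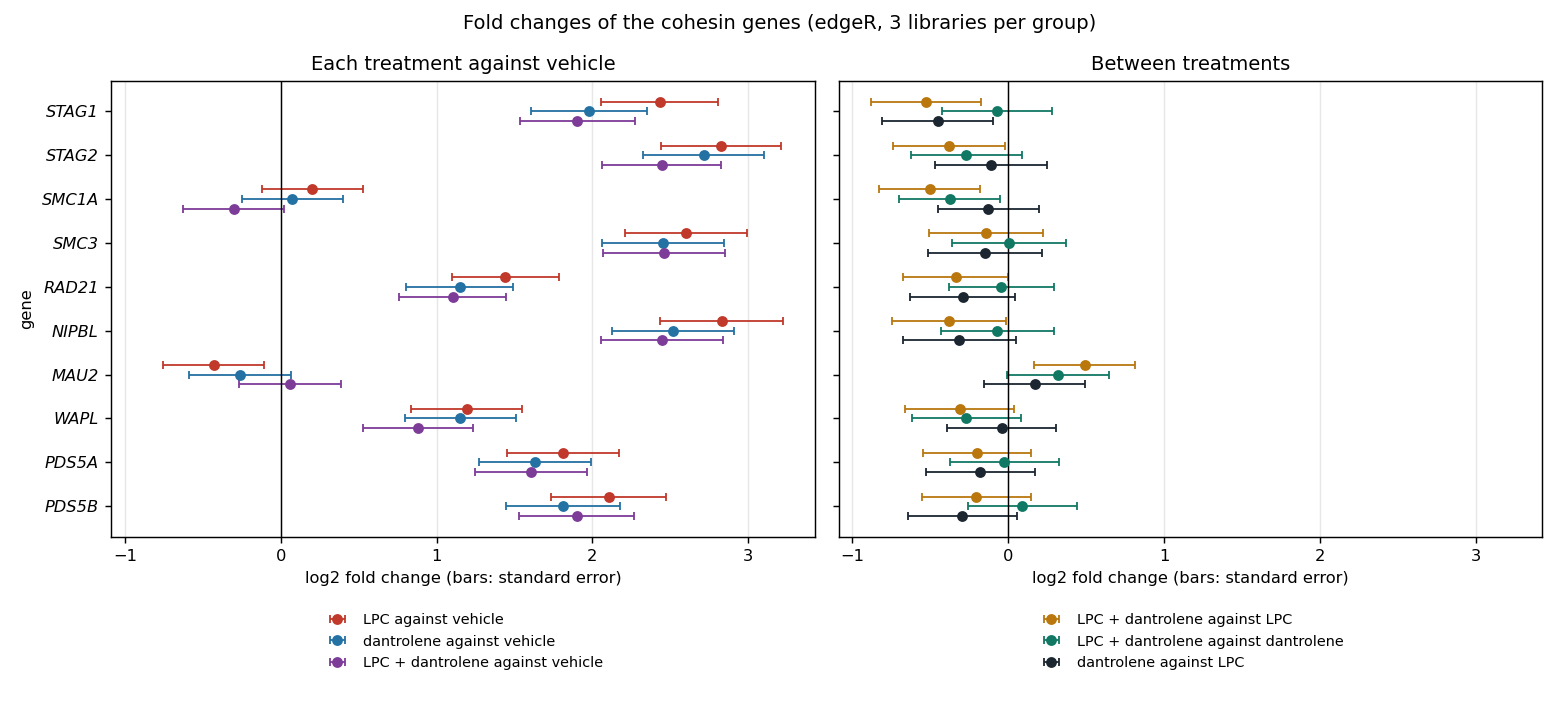
Log2 fold changes (points) with standard errors (bars) of the 10 cohesin genes, on the left for each treatment against vehicle and on the right between treatments, 3 libraries per group. On the left 8 genes lie to the right of 0 in all 3 contrasts while SMC1A and MAU2 straddle it, and on the right all points lie between −0.53 and 0.49.

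Contrasts between treatments were not used to choose the set, and none of the 10 genes was called in any of them. For LPC + dantrolene against LPC, where 0.507% of all genes were called in either direction, the log2 fold changes ran from −0.53 ± 0.35 for STAG1 (95% interval −1.22 to 0.17, edgeR adjusted p = 0.887) to 0.49 ± 0.33 for MAU2 (−0.15 to 1.13, edgeR adjusted p = 0.887), with a median of −0.32 beside 0.02 over all genes. STAG2 was at −0.38 (−1.08 to 0.32), SMC3 at −0.14 (−0.86 to 0.58) and NIPBL at −0.38 (−1.10 to 0.33). The 10 genes' ranges all overlapped between these 2 groups, but the share of all genes whose ranges overlapped was not computed. By DESeq2 none was called either, and 0 of the 10 had an unadjusted p under 0.05 with either tool. Of all genes 6.61% had an unadjusted p under 0.05 by edgeR, so 0 of 10 is near the share over all genes.

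For LPC + dantrolene against dantrolene, where 0.0227% of all genes were called in either direction, the cohesin genes lay between −0.38 ± 0.32 for SMC1A (−1.01 to 0.26) and 0.32 ± 0.33 for MAU2 (−0.32 to 0.96), with an edgeR adjusted p of 1 for each gene. For dantrolene against LPC, where 0.325% of all genes were called in either direction, they lay between −0.45 ± 0.35 for STAG1 (−1.15 to 0.24) and 0.17 ± 0.33 for MAU2 (−0.47 to 0.81), again with an adjusted p of 1 in edgeR for each. In both contrasts 0 of the 10 genes had an unadjusted p under 0.05 by edgeR or by DESeq2. By edgeR 1.28% and 4.40% of all genes did, so 0 of 10 is again near the share over all genes. With standard errors of 0.32 to 0.37, a difference between treatments of up to about 1 on the log2 scale lies within the intervals of several genes, so these contrasts do not show that the treatments acted alike. The signs were not stable. With LPC + dantrolene replicate 2 left out, SMC3, RAD21, NIPBL, WAPL, PDS5A and PDS5B were at 0.26, 0.00, 0.01, 0.09, 0.19 and 0.11 against LPC.

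The interaction (the LPC effect in cells given dantrolene minus the LPC effect in cells not given it) was below 0 for 9 of the 10 genes. This interaction also uses the vehicle libraries, so it is not independent of the contrasts with vehicle. It was called for STAG1 at −2.51 ± 0.51 (95% interval −3.51 to −1.50, edgeR adjusted p = 0.00119), PDS5B at −2.01 ± 0.51 (−3.0 to −1.02, edgeR adjusted p = 0.00768), and PDS5A at −1.83 ± 0.50 (−2.81 to −0.86, edgeR adjusted p = 0.0153). RAD21 at −1.49 ± 0.48 (edgeR adjusted p = 0.0538) and WAPL at −1.46 ± 0.50 (edgeR adjusted p = 0.0734) were not called. SMC1A was at −0.58 ± 0.46 (edgeR adjusted p = 0.614), and MAU2 alone was above 0, at 0.75 ± 0.46 (edgeR adjusted p = 0.495). For the genes that chose the set the values were −3.09 for STAG2, −2.60 for SMC3 and −2.90 for NIPBL, given without a test since the interaction holds the contrasts that chose them.

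In terms of the levels, each agent alone raised STAG1, PDS5A and PDS5B over vehicle, and the 2 together did not add up. STAG1 averaged 36.4 ± 1.98 CPM with LPC, 26.6 ± 13.1 CPM with dantrolene and 25.2 ± 13.6 CPM with both (mean ± SD, n = 3). PDS5B averaged 27.3 ± 2.12, 22.2 ± 10.6 and 23.7 ± 10.5 CPM in the same order. Thus 3 of the 7 partners were below 0 and called, where 4.49% of all genes were. Of genes spanning over 75.7 kb, which include all 3, 10.1% were. With the isolation as a block 1 partner was called, since PDS5A (edgeR adjusted p = 0.0572) and PDS5B (edgeR adjusted p = 0.0507) were not. None of the 7 was called without LPC replicate 2 or without dantrolene replicate 2. STAG1 was then at −2.48 (edgeR adjusted p = 0.0679) and −2.05 (edgeR adjusted p = 0.0641). PDS5A was also lost with scaling by total counts alone (edgeR adjusted p = 0.0775) and without vehicle replicate 2 or LPC replicate 1, and both PDS5 genes without LPC replicate 2, without dantrolene replicate 2, or without both dantrolene-treated libraries of isolation 2. Without both of these libraries PDS5A was at −1.11 (edgeR adjusted p = 0.202), PDS5B at −1.30 (edgeR adjusted p = 0.127), and STAG1, still called, at −1.68 (edgeR adjusted p = 0.0317). RAD21, WAPL and MAU2 were then at −0.86, −0.76 and 0.17, and STAG2, SMC3 and NIPBL at −2.03, −1.51 and −1.90.

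Other choices added calls in the interaction. RAD21 was called with RLE factors (edgeR adjusted p = 0.0485), with no filter on low counts (edgeR adjusted p = 0.0383), with at least 10 counts in each library (edgeR adjusted p = 0.0254), and without dantrolene replicate 1 or LPC + dantrolene replicate 1 or 3. WAPL was called with no filter (edgeR adjusted p = 0.0489), with at least 10 counts in each library (edgeR adjusted p = 0.0330), and without dantrolene replicate 1 or LPC + dantrolene replicate 3.

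Ratios of counts within a library do not depend on library size, and they show how far partners of 1 complex moved together. They compare a ratio across libraries and say nothing of the relative amounts of the 2 proteins. The NIPBL to MAU2 ratio was 0.0928, 0.0927 and 0.0779 with vehicle, 0.951, 1.01 and 0.605 with LPC, 0.218, 1.59 and 0.497 with dantrolene, and 0.820, 0.111 and 0.745 with LPC + dantrolene. Every treated library was above every vehicle library, by a wide margin except for LPC + dantrolene in isolation 2. The SMC3 to SMC1A ratio behaved likewise, at 0.158, 0.134 and 0.150 with vehicle, 0.677, 1.22 and 0.574 with LPC, 0.347, 1.30 and 0.653 with dantrolene, and 0.903, 0.574 and 1.30 with LPC + dantrolene.

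In the combination library of isolation 2 the SMC3 to SMC1A ratio of 0.574 was thus among the treated values, while its NIPBL to MAU2 ratio was next to vehicle. The RAD21 to SMC3 ratio was lower in all treated libraries, at 2.87 to 3.79 with vehicle, 1.27 to 1.78 with LPC, 1.03 to 1.83 with dantrolene and 1.08 to 1.78 with LPC + dantrolene. All 3 of these ratios hold a gene that chose the set and are given with no test. The paralog ratios moved less. STAG2 to STAG1, which also holds such a gene, was 0.929 to 1.23 with vehicle against 1.20 to 1.69, 1.47 to 2.08 and 1.21 to 2.09 with LPC, dantrolene and LPC + dantrolene. PDS5A to PDS5B, neither of which chose the set, was 2.74 to 3.76 with vehicle against 2.54 to 3.06, 2.67 to 4.0 and 1.96 to 3.01, and overlapped vehicle in every treatment.

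**Figure D3:**
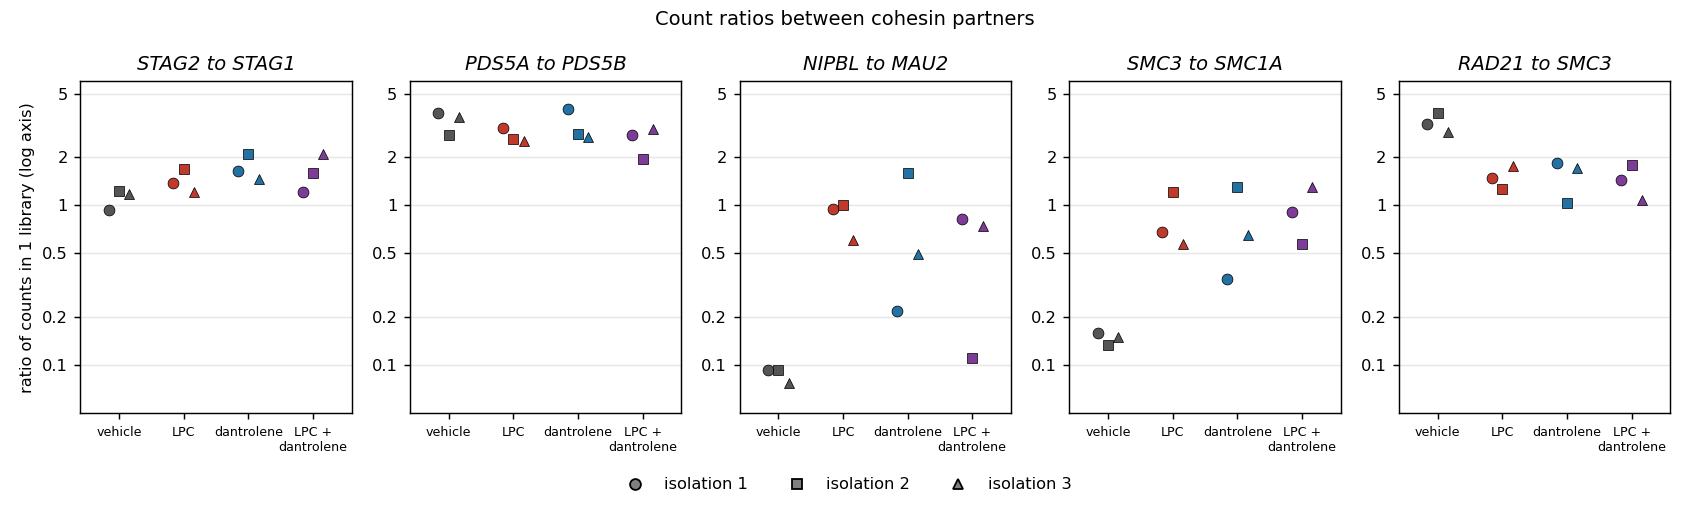
Ratio of the counts of partner genes in each library (log axis) by treatment, with the isolation as the marker shape. NIPBL to MAU2 and SMC3 to SMC1A lie higher, and RAD21 to SMC3 lower, in all 9 treated libraries than in the 3 vehicle libraries, whereas PDS5A to PDS5B overlaps vehicle in every treatment.

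To ask whether the partners with shorter genes moved too, the genes were ordered by their genomic span in RefSeq. The 5 shorter genes were RAD21 (29.6 kb), MAU2 (37.8 kb), SMC3 (39.3 kb), SMC1A (58.5 kb) and WAPL (96.2 kb), and the 5 longer were STAG2 (141 kb), PDS5A (146 kb), PDS5B (208 kb), NIPBL (212 kb) and STAG1 (542 kb). Of the 4 shorter partners that did not choose the set, RAD21 and WAPL were called higher with LPC and with dantrolene, RAD21 with LPC + dantrolene, and SMC1A and MAU2 in none. The 3 longer partners, STAG1, PDS5A and PDS5B, were called higher in all 3 treatments. The median log2 fold change was 0.70, 0.61 and 0.47 over these 4 shorter partners and 2.10, 1.81 and 1.90 over the 3 longer, with LPC, dantrolene and LPC + dantrolene.

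The partners did not follow the order of their spans throughout. RAD21, the shortest, was at a log2 fold change of 1.44 with LPC, whereas MAU2 and SMC1A, both longer, were at −0.43 and 0.20. The 3 longer partners lay between 1.81 and 2.43 with LPC, and 1.61 and 1.90 were their lowest and highest values with LPC + dantrolene.

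Over all genes the longer bins also held the higher values. Of the genes tested, 10802 (81.7%) could be matched to a RefSeq span, and they were split into 4 bins of equal size at 12.1, 30.5 and 75.7 kb. The median log2 fold change with LPC was −0.29, −0.23, −0.08 and 0.03 from the shortest to the longest bin, and the share called higher was 2.00%, 5.30%, 13.9% and 16.5%. With dantrolene the shares called higher were 1.96%, 4.52%, 12% and 14.7%, and with LPC + dantrolene 1.74%, 3.74%, 9.78% and 12%. In the interaction the share called below 0 was 0.889%, 2.52%, 6.85% and 10.1% from the shortest to the longest bin. RAD21 falls in the second bin and the other 9 genes in the third or the longest, and the shares called in those bins stand beside those of 8.54%, 7.54% and 6.23% over all genes.

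Single libraries differed in this respect as well. The median log2 deviation of the longest bin less that of the shortest was −0.01, −0.28 and −0.50 in the vehicle libraries, 0.33, −0.03 and 0.26 with LPC, −0.04, 0.35 and 0.05 with dantrolene, and 0.28, −0.66 and 0.24 with LPC + dantrolene. The lowest of these 12 values was the LPC + dantrolene library of isolation 2, in which the cohesin genes were also low, and the highest was the dantrolene library of isolation 2, in which they were high. The part of this length-related difference between libraries in the levels of the cohesin genes was not tested.

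**Figure D4:**
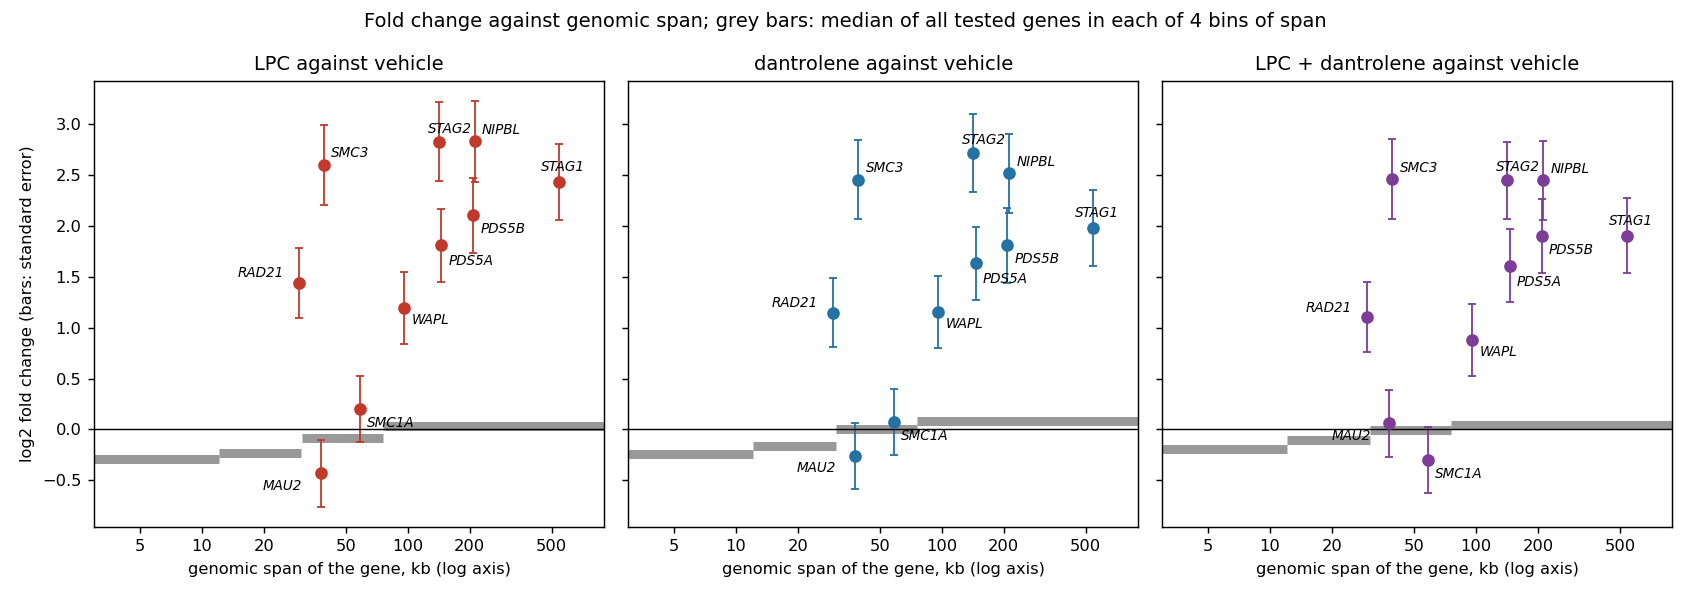
Log2 fold change against vehicle (bars: standard error) of the 10 cohesin genes by genomic span (log axis), for each treatment, with the median of all tested genes in each of 4 bins of span as grey bars. The genes longer than WAPL, among them STAG2 and NIPBL, which helped choose the set, all lie above 1.5, the shorter genes range from about the grey bars (MAU2, SMC1A) up to SMC3, and the grey bars themselves are higher for longer spans.

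Most other genes of the cohesin cycle were not called. Of all genes tested, 8.54%, 7.54% and 6.23% were called higher with LPC, dantrolene and LPC + dantrolene. Of 14 listed, 11 had a row and 9 were tested, and ESCO2, PTTG1 and RAD21L1 had no row under their symbols while STAG3 and SMC1B did not pass the filter. ESCO1, an acetyltransferase of SMC3, was the only one called in all 3 treatments, with log2 fold changes of 2.03 ± 0.41, 1.74 ± 0.41 and 2.11 ± 0.42 (edgeR adjusted p = 0.000196, 0.00178 and 0.000166). SGO2, a shugoshin that protects centromeric cohesin, was called with dantrolene at 2.04 ± 0.65 (edgeR adjusted p = 0.0322) and was at 1.77 with LPC and 1.88 with LPC + dantrolene, which did not pass the test (edgeR adjusted p = 0.0856 and 0.0663). CTCF, the insulator protein at which cohesin stops, was at 0.11, 0.05 and −0.08 (edgeR adjusted p = 0.873, 0.967 and 0.975), and HDAC8, which deacetylates SMC3, at −0.12, 0.21 and −0.22. The median of the 9 was 0.11, 0.05 and −0.22.

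In condensin, the related complex that compacts chromosomes, both SMC genes were called and no other subunit was. These are 2 of 8 genes in each treatment, where 8.54%, 7.54% and 6.23% of all genes were called higher. The SMC2 gene was called higher with LPC, dantrolene and LPC + dantrolene at 2.76, 2.70 and 2.30 on the log2 scale (edgeR adjusted p = 9.35e-07, 2.36e-06 and 2.30e-05). SMC4, its ATPase partner, was called as well at 2.06, 1.49 and 1.33 (edgeR adjusted p = 4.35e-05, 0.00423 and 0.0137). The other 6 condensin genes, the non-SMC subunits NCAPD2, NCAPD3, NCAPG, NCAPG2, NCAPH and NCAPH2, were not called in any treatment, and the median of all 8 was −0.25, −0.66 and −0.50.

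In the SMC5/6 complex, which acts in DNA repair, 3 of 6 listed genes were tested. SMC6 was called higher at 2.10, 2.24 and 2.21 (edgeR adjusted p = 1.59e-05, 1.14e-05 and 1.70e-05), and NSMCE1 and NSMCE2 lay between −0.33 and 0.13. The shares of all genes called higher were again 8.54%, 7.54% and 6.23%. SMC5 and NSMCE3 had no row under their symbols, and NSMCE4A did not pass the filter. SMC2, SMC4 and SMC6 were also called in the interaction, at −3.16, −2.21 and −2.13 (edgeR adjusted p = 0.000174, 0.00486 and 0.0045). Of all genes, 4.49% were called below 0 there. The interaction uses the vehicle libraries, so these calls are not separate from those against vehicle. Their values with single libraries left out are not given here.

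Genes of proliferating cells were read beside these because cohesin and condensin serve mitosis. Of 14 tested, TOP2A, a topoisomerase of dividing cells, was called higher with LPC at 2.85 ± 0.60 (edgeR adjusted p = 0.000293) and was at 0.67 and 0.81 with dantrolene and LPC + dantrolene. TOP2A was the only gene of the list called higher with LPC, near the share of 8.54% over all genes. The mitotic kinase gene PLK1 and the replication helicase genes MCM2 and MCM3 were called lower with dantrolene, at −1.54, −1.39 and −1.36, where 1.26% of all genes were called lower. With LPC + dantrolene MCM2, MCM3 and MCM5 were called lower, at −1.42, −1.24 and −1.11, where 0.9% of all genes were called lower. The median of the list was −0.12, −1.0 and −0.80 with LPC, dantrolene and LPC + dantrolene, beside 1.44, 1.15 and 1.10 for the 7 cohesin partners and −0.18, −0.11 and −0.08 for all genes. These lists were read from the same fit as the cohesin genes and share its vehicle libraries.

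**Figure D5:**
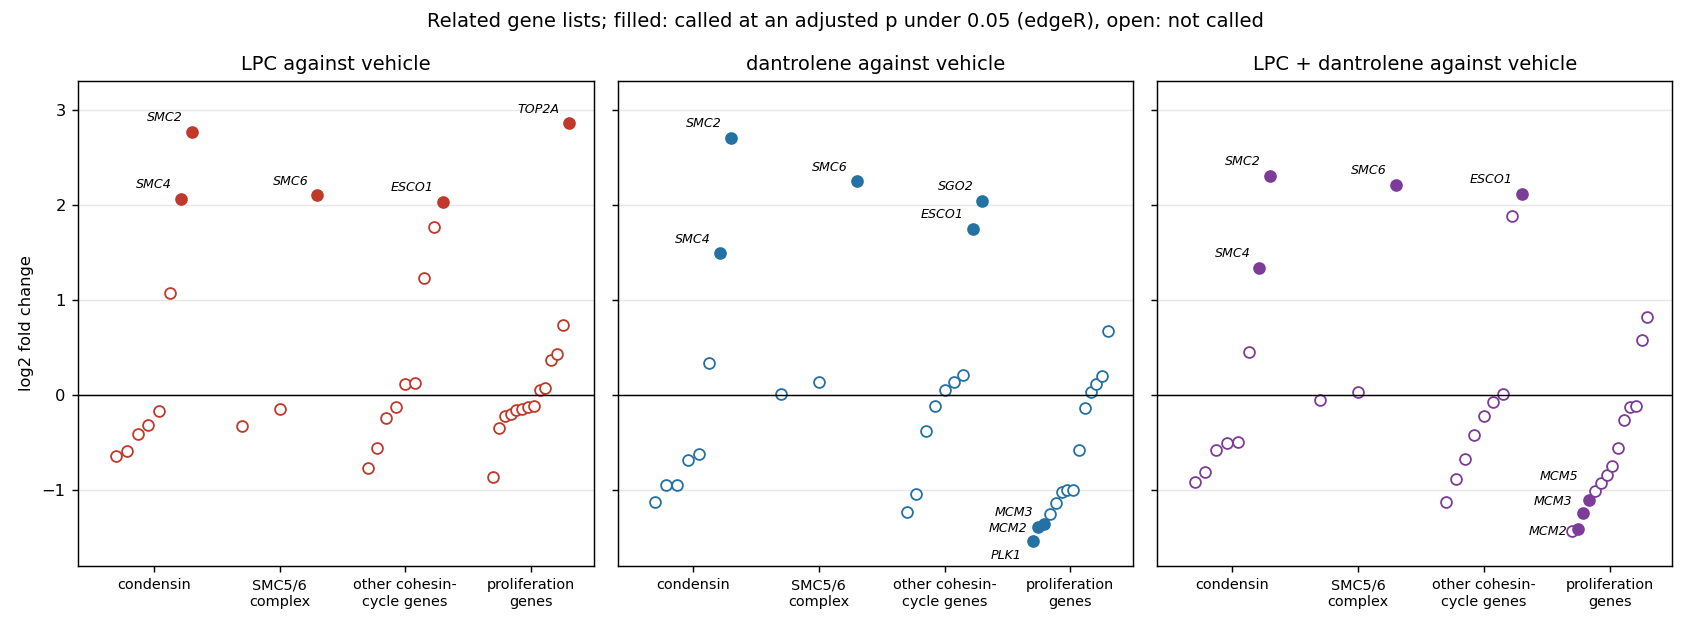
Log2 fold change against vehicle of the tested genes of 4 related lists, filled where called at an edgeR adjusted p under 0.05 and open where not, ordered by value within each list. SMC2, SMC4, SMC6 and ESCO1 are filled above 0 in all 3 treatments, while the other condensin and SMC5/6 genes are open and the proliferation genes called with dantrolene or LPC + dantrolene are below 0.

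Across the 12 libraries, the genes whose pattern was most like the mean of the standardized cohesin profiles were DHX36, a helicase of quadruplex nucleic acids (Pearson r = 0.996), SCAF11, a splicing-associated factor (r = 0.995), PRKD3, a protein kinase (r = 0.995), SLC35A3, a Golgi sugar transporter (r = 0.994), and DMXL1 (r = 0.994). These values are descriptions over libraries that share groups, isolations and scaling. Among the cohesin genes themselves, each of which is part of that mean, r was 0.947 to 0.995 for 8 genes, with PDS5A highest and WAPL lowest. It was 0.455 for SMC1A and −0.687 for MAU2.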

How the data were processed

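mRNA of 12 paVIC cultures was sequenced. The authors aligned the reads to pig, with STAR named in the methods and HISAT2 2.0.5 in the submitters' processing notes (build Sscrofa11.1), adjusted the counts for batch with ComBat, and deposited the result as whole-number counts without scaling to library size. The counting tool, its strand setting and the annotation release are not given in the sources used here. The authors also deposited tables of 4 DESeq2 comparisons (fold changes and p-values), which were not used.

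Counts were fitted in R 4.3.3 with edgeR 4.0.16, by a quasi-likelihood model with a term for the group fitted to the 12 libraries together, after filterByExpr and TMM scaling. Calls required an adjusted p (Benjamini-Hochberg, over the 13216 genes tested) under 0.05. Standard errors are the fold change over the root of its F, and 95% intervals use the normal distribution. The code was tested on simulated data. Spans came from the RefSeq table of Sscrofa11.1. Promoters and proteins were not analysed here.

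The members, lists and rules (all 10 genes, list genes called or at a list's ends, and the 5 most alike genes with a symbol) were chosen with earlier results of these data known. Replicate numbers mark isolations in the labels and methods, so they pair the samples. Deviations from group means correlated between libraries of 1 isolation with a median r of −0.152 (−0.536 to 0.207). The counts had been adjusted with ComBat, so this r cannot show how far isolations differed before. What the adjustment did to r was not tested. The adjustment also cost degrees of freedom for which the tests make no allowance. Alternatives were DESeq2 1.42.0, a block for the isolation, RLE factors or plain totals for scaling, every gene or those with 10 or more counts in each library, a fit of 2 groups alone, a threshold of 0.1, each library left out, and, chosen after seeing the data, both dantrolene-treated libraries of isolation 2 left out.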

Additional observations from a re-analysis of the deposited data

Results flagged for a closer look

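The effect of LPC differed between cells without and with dantrolene for 3 partners, by the test of the interaction in edgeR across all genes. STAG1 was at −2.51 (edgeR adjusted p = 0.00119), PDS5B at −2.01 (edgeR adjusted p = 0.00768) and PDS5A at −1.83 (edgeR adjusted p = 0.0153) on the log2 scale. These values largely repeat the gap to vehicle and are not separate from the calls against vehicle. For STAG1, PDS5B and PDS5A, LPC against vehicle was at 2.43, 2.10 and 1.81. LPC + dantrolene against dantrolene was at −0.07, 0.09 and −0.02 for the same genes. Over the alternatives the adjusted p ran from 0.000113 to 0.0679 for STAG1, from 0.00185 to 0.130 for PDS5B and from 0.00176 to 0.202 for PDS5A in edgeR and DESeq2. STAG1 and PDS5A had lower levels with LPC + dantrolene than with LPC in 3 and 2 of the 3 isolations, and PDS5B in 1. Without the LPC + dantrolene library of isolation 2 the values were −2.20 for STAG1, −1.76 for PDS5B and −1.50 for PDS5A. Without both dantrolene-treated libraries of isolation 2 they were −1.68, −1.30 and −1.11, and only STAG1 was called (edgeR adjusted p = 0.0317). Groups of 3 libraries are too small for a test of single outlying libraries.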

How the results depend on the processing

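Over all alternatives 4 or 5 of the 7 partners were called higher with LPC, 3 to 5 with dantrolene and 3 to 5 with LPC + dantrolene, and 0 of the 10 genes in the contrasts between treatments. With the isolation as a replicate block 4, 3 and 3 partners were called against vehicle, 1 in the interaction and none of the 10 genes between treatments, and beyond the losses given with RAD21, WAPL, PDS5A and PDS5B the block changed no call. In the interaction 3 partners were called, with 0 to 5 when 1 library was left out. The count was 5 with no filter, with at least 10 counts in each library and at an adjusted p under 0.1, 4 with RLE factors, 3 by DESeq2, 2 by total counts alone, and 1 without both dantrolene-treated libraries of isolation 2. These counts over the 7 partners were added after seeing the data. The planned count over all 10 genes was 6 in the interaction and ran from 0 to 8 with 1 library left out. Those 6 include STAG2, SMC3 and NIPBL, which were chosen on contrasts with vehicle that the interaction holds. The planned count is therefore a description only and no test of the set, and the 3 partners called are the count to set beside the 4.49% of all genes called below 0. No called value changed direction under any of these alternatives. With 1 library left out, SMC1A ran from −0.50 to 0.037 and MAU2 from −0.23 to 0.28 for LPC + dantrolene against vehicle, and MAU2 ran from −0.034 to 0.56 for LPC + dantrolene against dantrolene and from −0.10 to 0.41 for dantrolene against LPC. Without both dantrolene-treated libraries of isolation 2, MAU2 was at −0.28 against vehicle and −0.27 against dantrolene for LPC + dantrolene. The cause of these changes was not tested, beyond the smaller number of libraries. Each group had 3 libraries, and the counts were adjusted for batch before deposit. The 95% intervals of differences between treatments reach as far as −1.22 on the log2 scale (STAG1, LPC + dantrolene against LPC).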
